A study of Mus musculus with 6 samples.

Results

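Interleukin 1 beta, interleukin 18 and interleukin 33, the receptor chains that bind them, their secreted inhibitors and the adaptor Myd88 were followed in livers with and without hepatocyte Notch1. The 9 genes (Il1b, Il18, Il33, Il1r1, Il1rap, Il18r1, Il1rn, Il18bp and Myd88) were taken by gene name from a table of 54532 genes, and all 9 were found once. The knockouts were 3 mice labelled as hepatocyte Notch1 knockouts, and the controls were 3 mice with homozygous floxed Notch1 (Notch1fl/fl); both groups were untreated. The study was designed around Notch1 and the liver's output of thrombopoietin. The Cre driver that defines the knockout, and the animals' age, sex and litter, are not stated in the labels. Messenger RNA came from whole liver, so each value sums hepatocytes, vessel cells, bile ducts, resident macrophages and the liver's surface layer, and fewer cells of a type cannot be told apart from less RNA per cell.

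Each library had between 15612924 and 17511961 reads assigned to genes. Levels are given as FPKM, in which reads are divided by gene length and by a size factor of the library. In the table the controls appear as NC, a name matched to them only because the other columns are labelled as knockouts, so every control value rests on that reading of the labels. Notch1 itself measured 0.301, 0.540 and 0.292 FPKM in knockout livers, against 0.618, 0.965 and 0.854 FPKM in control livers. Hepatocyte markers were abundant in all 6 libraries. Over all tested genes, knockout 2 correlated with knockouts 1 and 3 at 0.967 and 0.971 (Pearson r of log2 values across genes, a description), while knockout 1 correlated with knockout 3 at 0.986 and with each control at 0.978 to 0.979. Knockout 2 also stood apart from the other knockouts in genes that interleukin 1 induces in liver, whose summed level is given with the downstream genes.

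Interleukin 1 beta binds the receptor chain encoded by Il1r1, which then pairs with the accessory chain encoded by Il1rap. Interleukin 18 binds the chain encoded by Il18r1, which pairs with the accessory chain of Il18rap, and interleukin 33 binds the product of Il1rl1, which also pairs with the Il1rap chain. All of these receptor complexes recruit MYD88 through a shared intracellular domain and lead to NF-kB. Interleukin 1 beta and interleukin 18 are made as precursors that caspase-1 cuts, while the receptor antagonist of Il1rn and the binding protein of Il18bp block the 2 cytokines outside the cell. In liver, Kupffer cells are a known source of both cytokines, and hepatocytes answer interleukin 1 with acute-phase proteins.

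The largest differences were in the receptor chains Il18r1 and Il1rap and in the cytokine gene Il33. Il18r1 and Il33 measured higher in every knockout liver than in any control liver, and Il1rap measured lower in every knockout liver. Group values of the other 6 genes overlapped. Groups did not overlap, with knockouts above, in 2 of the 9 genes, and they did so in 9.20% of all 12022 genes tested. With knockouts below, the count was 1 of the 9 genes, against 10.6% of all genes. By limma with Benjamini-Hochberg adjustment over all 12022 genes, 0 of the 9 passed the threshold of 0.05, where 0.0250% of all genes passed (3 genes, and 0 with a replicate block). At an unadjusted p under 0.05 there were 2 higher and 1 lower gene among the 9, against 6.83% and 7.06% of all genes, and by limma voom on recovered reads 0 of the 9 passed. The median log2 fold change of the 9 genes was 0.11, and that of all tested genes was -0.0081.

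**Figure D1:**
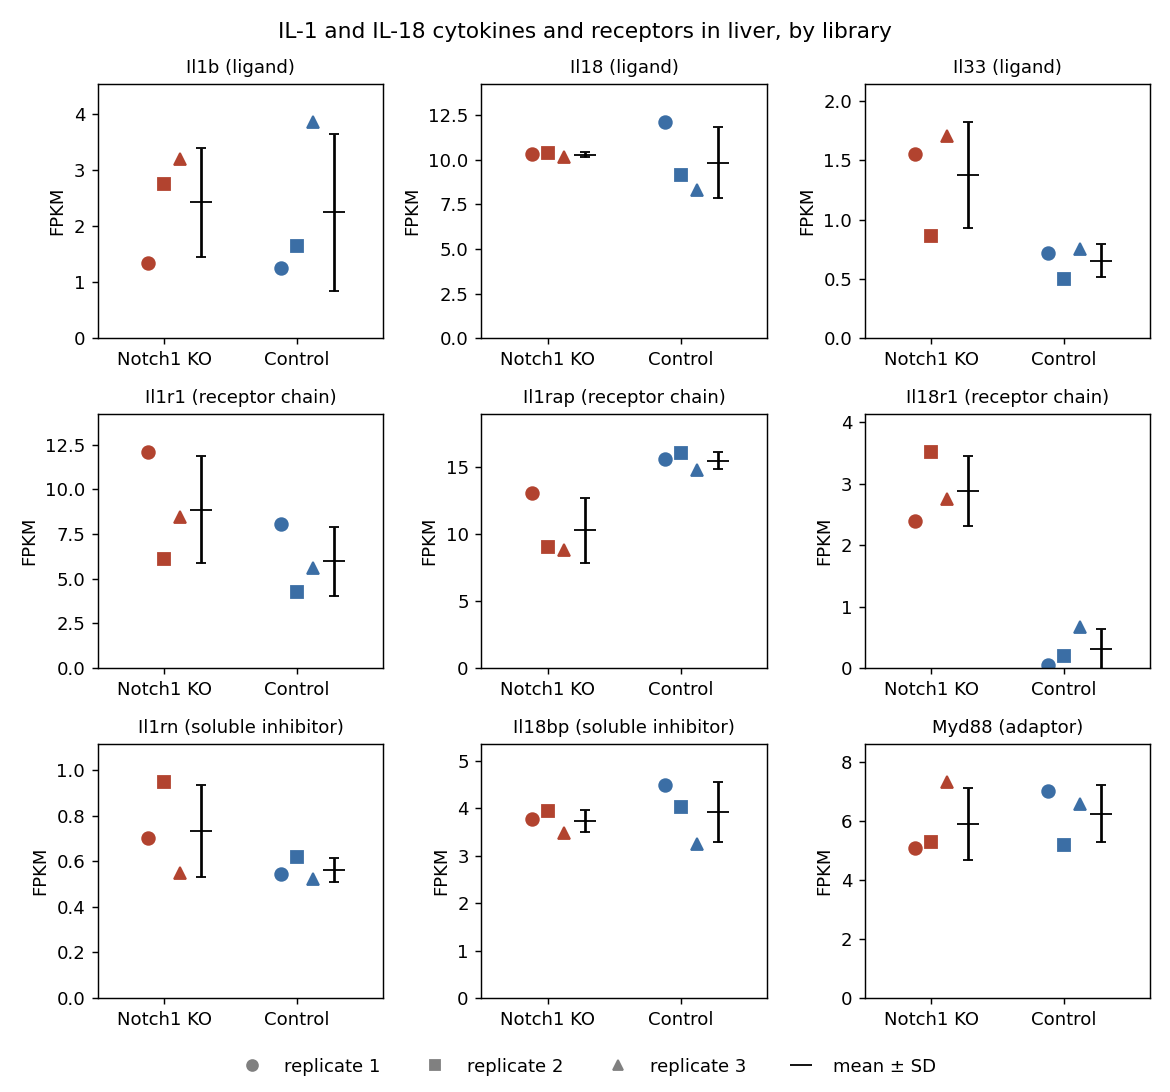
FPKM of the 9 genes in each liver, with knockouts at left and controls at right of each panel; each point is 1 library, its shape gives the replicate number, and the bar is the mean ± SD of 3 livers. Il18r1 and Il33 lie higher, and Il1rap lower, in all 3 knockouts than in all 3 controls.

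**Figure D2:**
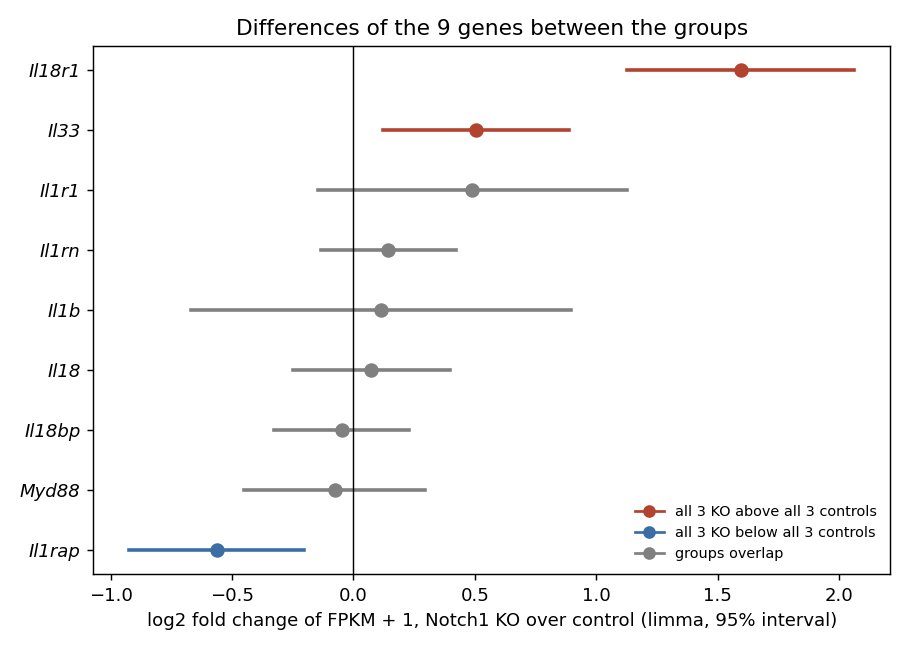
Log2 fold change of FPKM + 1 in knockout over control livers with the 95% interval from limma, for each of the 9 genes. The intervals of Il18r1 (1.13 to 2.06), Il33 (0.12 to 0.89) and Il1rap (-0.92 to -0.20) do not include 0, although none of these genes passed after adjustment over all genes.

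Il18r1 encodes the chain that binds interleukin 18 (ENSMUSG00000026070, chromosome 1, 40465552 to 40500854, plus strand, GRCm38; 12 exon blocks). It measured 2.40, 3.51 and 2.74 FPKM in knockout livers, against 0.0415, 0.194 and 0.675 FPKM in control livers. These levels rested on 173, 339 and 226 reads in the knockouts, against 3, 15 and 54 reads in the controls. The lowest knockout was well above the highest control, and control 3 was the highest of its group. Mean levels were 2.89 ± 0.568 FPKM in knockouts and 0.303 ± 0.330 FPKM in controls (SD, n = 3 each), a ratio of 9.51. The log2 fold change on the log2(FPKM + 1) scale, which understates changes of low genes, was 1.60 (SE 0.20), with a limma adjusted p of 0.0877. The control mean lay under the filter of 0.5 FPKM used for testing, so the gene entered the fit only through its knockout values. With no filter on low values the limma adjusted p was 0.208. Leaving out control 3 raised the ratio of means to 24.5 and took the gene past the threshold (limma adjusted p = 0.0304); over the 15 alternative settings the adjusted p ran from 0.0304 to 0.267, and the difference was positive in each.

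The stretch just before the gene's start is shown because it is short and lies directly behind the neighbouring receptor gene. Il1rl1, the interleukin 33 receptor chain, ends 136 bases before Il18r1 begins. The bases between them (RefSeq promoter table, GRCm38.p6, chr1:40465416-40465551, plus strand) hold 1 copy of TGGGAA, a short motif of RBPJ, the DNA-binding partner of Notch; it is on the minus strand, reads TTCCCA on the strand printed and is in capitals.
Il18r1: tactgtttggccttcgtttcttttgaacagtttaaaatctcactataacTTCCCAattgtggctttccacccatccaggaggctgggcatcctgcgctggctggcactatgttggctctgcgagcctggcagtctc
The same letters, on either strand, occurred in the last 136 bases before the start of 11.9% of 32851 RefSeq promoters. No copy of GGGANNNNCC (NF-kB), TTCNNNGAA (STAT) or TTGCNNAA (C/EBP) was found in this window, on either strand. A match of letters is not a measurement of binding.

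The neighbouring receptor genes on chromosome 1 did not share the level of Il18r1. Il1rl1, which ends next to it, had 8 reads over the 3 knockout livers and 0 over the 3 control livers. Il18rap, the partner chain that interleukin 18 needs to signal and the next gene downstream, had 14 reads over the knockouts and 28 over the controls, at most 14 in a library. Il1r2, the decoy receptor of interleukin 1, and Il1rl2, the interleukin 36 receptor chain, had at most 14 reads in any library. Of the 10 genes of a list covering this region, 3 were tested, Il1r1 and Map4k4 besides Il18r1, and all 3 had higher means in knockouts. Map4k4, a kinase gene at the edge of the region, measured 2.35, 3.44 and 2.36 FPKM in knockout livers, against 1.61, 2.18 and 1.99 FPKM in control livers (limma adjusted p = 0.360).

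**Figure D3:**
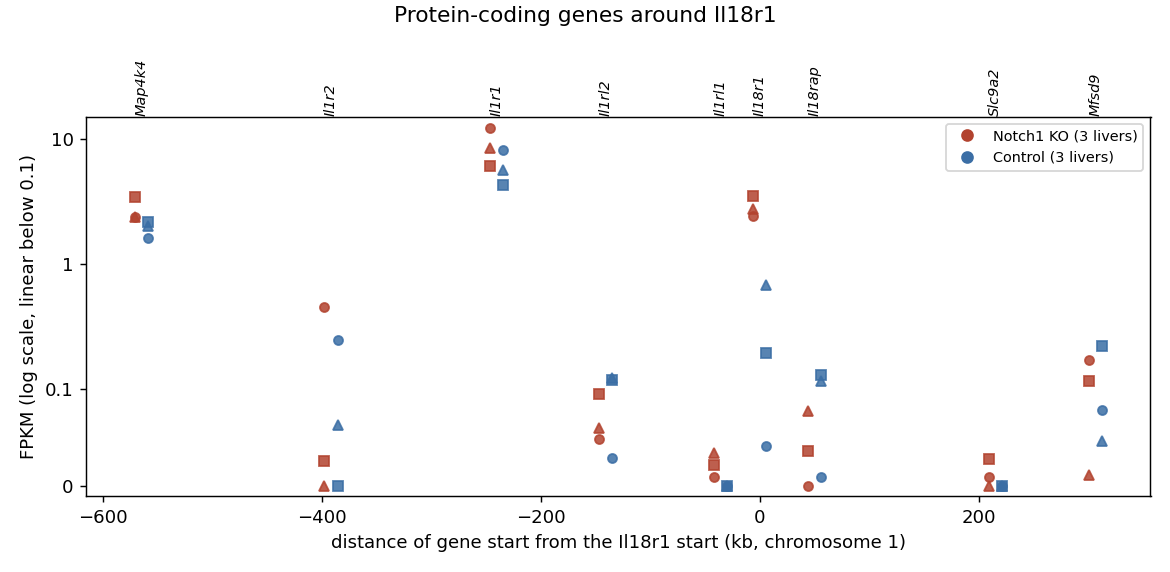
FPKM of the protein-coding genes listed above 0 near Il18r1, by distance of their start from the Il18r1 start in kilobases; points are libraries (shape gives the replicate number), knockouts left of controls, on a log scale that is linear below 0.1. Il1r1, Il18r1 and Map4k4 stand above 2 FPKM in all knockouts, and Il1r1 does so in all controls too. Il1rl2, Il1rl1 and Il18rap stay near 0.1 FPKM or below in both groups.

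Markers of the mesothelium, the cell layer that covers the liver, moved together with Il18r1. Of 12 such markers 11 were tested, 10 of them had higher means in knockouts, 9 stood above all controls in all knockouts, and 1 (Podxl) stood below. Over all tested genes, 9.20% stood above and 10.6% below without overlap. The list was chosen with earlier results of these data known, so these counts are a description only. By limma 0 of the markers passed after adjustment, 10 had an unadjusted p under 0.05, all higher, and 0 passed by limma voom. Among all tested genes, 6.83% were higher at that unadjusted p. Barx1, Bnc1 and Wt1 averaged 0.146, 0.343 and 0.261 FPKM in controls, so they met the filter of 0.5 FPKM only through the knockouts. The list's summed level was 204, 294 and 256 FPKM in knockouts, against 97.5, 115 and 167 FPKM in controls. Krt8, a keratin also made by hepatocytes, carried much of that sum, and without it, a choice made after the values were seen, the sum was 96.3, 162 and 127 FPKM in knockouts, against 7.44, 15.1 and 59.3 FPKM in controls. None of the 12 was at 0 in all libraries. Knockout 2 was the highest and control 1 the lowest library both for this sum and for Il18r1, and control 3 was the highest control for both. Msln, the gene for the surface protein mesothelin, measured 36.6, 60.7 and 41.8 FPKM in knockouts, against 2.02, 3.90 and 19.1 FPKM in controls (limma adjusted p = 0.165).

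Per unit of Msln, Il18r1 was 0.0657, 0.0578 and 0.0657 in knockouts, against 0.0206, 0.0499 and 0.0353 in controls, a ratio formed after the values were seen. These ratios did not overlap between groups and were closer together than the levels of Il18r1 itself. They rest on 1 marker of the list and, in control 1, on 3 reads of Il18r1. Ratios to the other mesothelial markers were not taken, so the separation is described for Msln only. Cholangiocyte markers, which share Krt19 with the mesothelial list, summed to 24.2, 26.4 and 33.3 FPKM in knockouts, against 16.1, 12.8 and 14.7 FPKM in controls. Of 8 markers 4 were tested, and 3 (Krt7, Sox9 and Krt19) stood above with no overlap, against 9.20% of all tested genes. Krt19 measured 8.15, 12.8 and 9.87 FPKM in knockouts, against 0.934, 1.58 and 6.68 FPKM in controls. The sum without Krt19 was not taken, so the separation of the sum is described with Krt19 included. Spp1, the other tested marker, overlapped, at 6.54 FPKM in knockout 2 and 10.1 FPKM in control 2. Among the markers too low to test, Epcam and Cftr overlapped and Tspan8 stood above. Ggt1 was at 0 throughout. The part of these cells in the Il18r1 result was not tested.

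Natural killer and T cells, which carry both chains of the interleukin 18 receptor, showed no such shift. Their 12 markers summed to 5.45, 5.79 and 5.55 FPKM in knockouts, against 6.45, 4.93 and 5.51 FPKM in controls. The groups overlapped, and 8 of the 12 markers were too low to test. Ncr1, a natural killer cell receptor gene, was at 0.203 FPKM or lower in all libraries.

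**Figure D4:**
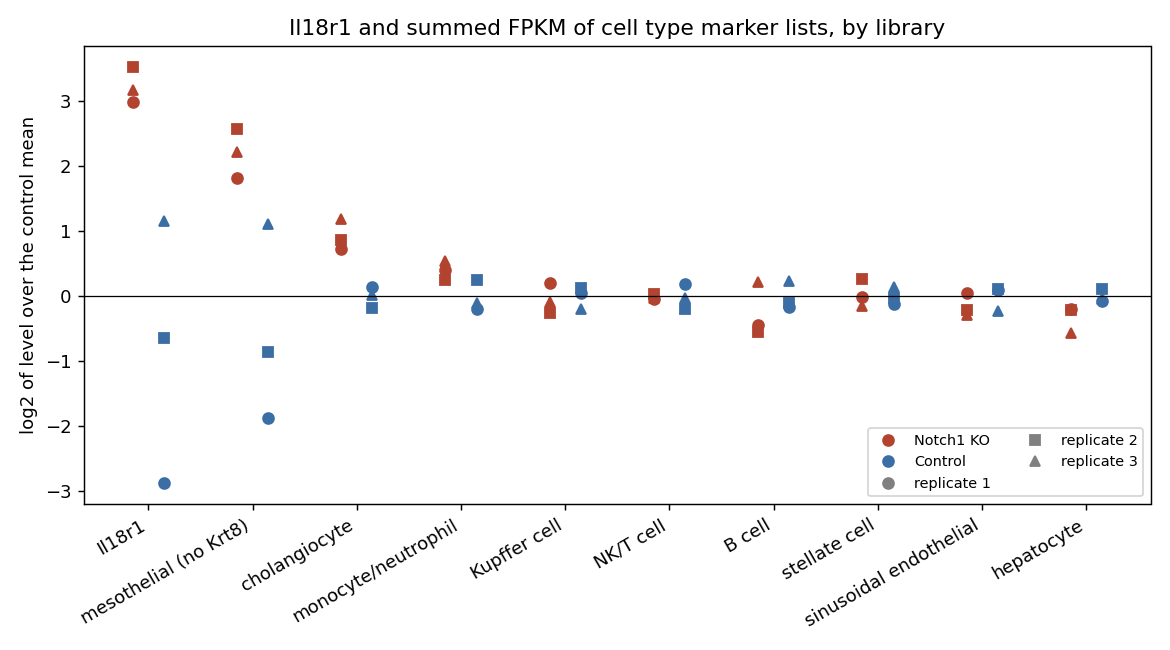
Log2 of the level in each library over the control mean, for Il18r1 and for summed FPKM of cell type marker lists; knockouts are drawn left of controls, and shapes give replicate numbers. Il18r1 and the mesothelial sum without Krt8 order the 6 libraries in the same way, and the natural killer and T cell sum overlaps between groups.

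The 5 tested genes most like Il18r1 over the 6 libraries, by Pearson correlation of log2(FPKM + 1), were Taf9b, Timp1, Shroom3, Slc39a8 and Selenom, with correlations of 0.994 to 0.996. Each separated the groups without overlap, which adds no result, since they were chosen for likeness to a gene that separates them. Taf9b and Shroom3 averaged 0.424 and 0.358 FPKM in controls, so they met the filter of 0.5 FPKM only through the knockouts. Slc39a8, a zinc and manganese transporter, measured 8.99, 11.9 and 10.1 FPKM in knockouts, against 4.74, 5.08 and 6.03 FPKM in controls. Timp1, a metalloproteinase inhibitor, measured 2.03, 2.64 and 2.11 FPKM in knockouts, against 0.751, 0.773 and 1.22 FPKM in controls. These correlations are over 6 libraries in 2 groups and describe them only.

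Il1rap encodes the accessory chain shared by the receptors for interleukins 1, 33 and 36, and liver is known for making a soluble form of it (ENSMUSG00000022514, chromosome 16, 26581704 to 26730117, plus strand). It measured 13.1, 8.99 and 8.79 FPKM in knockout livers, against 15.6, 16.0 and 14.8 FPKM in control livers. Knockouts 2 and 3 lay far below the controls and knockout 1 came closest to them, while the controls were tightly grouped. Means were 10.3 ± 2.42 FPKM in knockouts and 15.4 ± 0.634 FPKM in controls (SD, n = 3 each), so control levels were 1.50 times those of knockouts. The log2 fold change was -0.56 (SE 0.15, limma adjusted p = 0.202), negative in all 15 alternatives, with adjusted p from 0.09998 to 0.451. At 1707 to 2914 reads per library this was the most deeply covered of the 9 genes. The deposited value joins 7 annotated transcripts, so membrane and soluble forms are not separated. An antisense gene, Gm20319, covers 4.86% of its exon bases and measured 29.7, 27.7 and 25.4 FPKM in knockouts, against 37.4, 37.3 and 29.4 FPKM in controls; without a stated strand setting, reads in the shared part cannot be assigned to either gene. Of 10 hepatocyte markers 2 had higher and 8 lower means, and 0 passed by limma or by limma voom. Of these markers 1, lower, had an unadjusted p under 0.05, against 7.06% of all tested genes. Their sum, mostly Alb, was 55906, 55282 and 43424 FPKM in knockouts, against 60875, 69428 and 62163 FPKM in controls, which did not overlap. Of the 10 markers, 3 lay below all controls in all knockouts, against 10.6% of all tested genes. Cyp2e1, the marker of smallest p, measured 1276, 623 and 967 FPKM in knockouts, against 1797, 1899 and 1688 FPKM in controls (limma adjusted p = 0.204). The part of hepatocytes in the Il1rap result was not tested.

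The start of Il1rap is shown beside that of Il18r1 because the 2 receptor genes differed in opposite directions. The 249 bases before it (GRCm38.p6, chr16:26581455-26581703, plus strand) hold 1 copy of TGGGAA, the RBPJ motif, and 1 of GGGANNNNCC, the NF-kB motif, both in capitals and not overlapping.
Il1rap: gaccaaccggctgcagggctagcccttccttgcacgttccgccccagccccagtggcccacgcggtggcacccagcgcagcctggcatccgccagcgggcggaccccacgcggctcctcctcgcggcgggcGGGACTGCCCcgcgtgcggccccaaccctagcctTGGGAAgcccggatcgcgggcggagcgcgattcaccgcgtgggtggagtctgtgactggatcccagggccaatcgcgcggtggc
In windows of this length, 21.5% of the 32851 promoters held the RBPJ letters and 17.6% the NF-kB letters, on either strand. The STAT and C/EBP letters were not in this window.

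Il1r1 encodes the chain that binds interleukin 1 (ENSMUSG00000026072, chromosome 1, 40225080 to 40317257, plus strand), 148 kilobases before Il18r1. It measured 12.1, 6.09 and 8.45 FPKM in knockout livers, against 8.08, 4.28 and 5.60 FPKM in control livers. The groups overlapped, and in each group replicate 1 was highest and replicate 2 lowest. Means were 8.87 ± 3.01 FPKM in knockouts and 5.98 ± 1.93 FPKM in controls (SD, n = 3 each), with a log2 fold change of 0.49 (SE 0.27, limma adjusted p = 0.469). Within same-numbered livers the log2 difference was 0.53, 0.43 and 0.52. In a fit with replicate block the SE was 0.085 and the limma adjusted p was 0.119, so the gene did not pass there either.

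Because Il1rap measured lower and Il1r1 had the higher mean in knockouts, the ratio of their levels was also taken. Neither gene passed after adjustment (limma adjusted p = 0.202 for Il1rap and 0.469 for Il1r1), and Il1r1 overlapped between groups. The Il1rap value joins membrane and soluble forms, so the ratio is not a measure of the 2 membrane chains. Per liver, Il1rap was 1.08, 1.48 and 1.04 times Il1r1 in knockouts, against 1.93, 3.74 and 2.64 times in controls, on the FPKM scale. All knockouts lay below all controls, with means of 1.20 ± 0.240 in knockouts and 2.77 ± 0.915 in controls (SD, n = 3 each). A ratio within a library does not depend on how libraries were scaled. It was formed with the values known and was given no test.

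**Figure D5:**
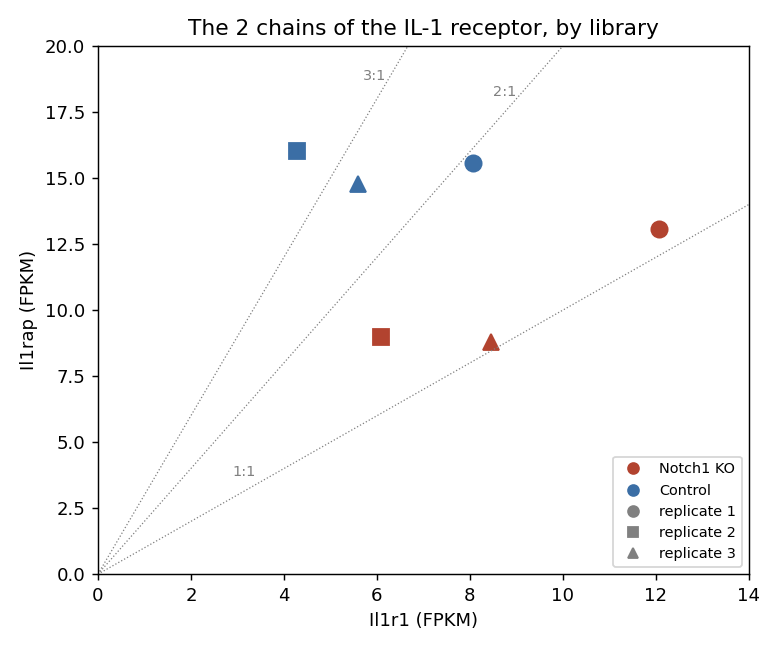
Il1rap against Il1r1 in each of the 6 livers, both in FPKM; colour gives the group, shape the replicate number, and dotted lines mark equal multiples of Il1r1. The 3 knockouts lie between the lines for 1 and 2 times, and the controls near or above the line for 2 times.

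Il33 encodes an alarmin, a cytokine held in the nucleus of barrier and stromal cells and released on damage (ENSMUSG00000024810, chromosome 19, 29925114 to 29960718, plus strand). It measured 1.55, 0.864 and 1.70 FPKM in knockout livers, against 0.716, 0.498 and 0.751 FPKM in control livers. Knockouts 1 and 3 were high, and knockout 2 lay just above the highest control. Means were 1.37 ± 0.447 FPKM in knockouts and 0.655 ± 0.137 FPKM in controls (SD, n = 3 each), a ratio of 2.10, at 23 to 84 reads per library. The log2 fold change was 0.51 (SE 0.16, limma adjusted p = 0.257; 0.142 to 0.486 over the alternatives, positive in all 15). Unlike Il18r1, its level per unit of Msln overlapped between groups, at 0.0425, 0.0142 and 0.0407 in knockouts, against 0.355, 0.128 and 0.0392 in controls. Stellate cells are a known source of interleukin 33 in liver, and their markers summed to 79.6, 96.5 and 72.0 FPKM in knockouts, against 73.3, 78.5 and 87.8 FPKM in controls, which overlapped. The receptor of interleukin 33 was barely detected at this depth, as the reads of Il1rl1 show.

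The start of Il33 is printed for comparison with the 2 receptor genes (250 bases, GRCm38.p6, chr19:29924863-29925112, plus strand). It held none of the 4 motifs, so no letters are in capitals.
Il33: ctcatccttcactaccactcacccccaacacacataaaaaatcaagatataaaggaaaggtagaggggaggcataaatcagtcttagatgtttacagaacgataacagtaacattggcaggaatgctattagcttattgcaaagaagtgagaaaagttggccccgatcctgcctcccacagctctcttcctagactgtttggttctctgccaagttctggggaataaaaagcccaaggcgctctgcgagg
RefSeq lists another start for Il33 further downstream, whose window is not shown.

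Il18, the interleukin 18 gene, was the most abundant of the 3 cytokine genes and the steadiest of the 9 in knockouts (ENSMUSG00000039217, chromosome 9, 50554827 to 50581840, plus strand). It measured 10.3, 10.4 and 10.2 FPKM in knockout livers, against 12.1, 9.14 and 8.29 FPKM in control livers. The knockout values fell inside the range of the controls. The log2 fold change was 0.074 (95% interval -0.25 to 0.40, limma adjusted p = 0.856), at 142 to 215 reads per library. Bco2 and Tex12 lie on the opposite strand over the same interval and share 0 exon bases with it.

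Il1b, the interleukin 1 beta gene (ENSMUSG00000027398, chromosome 2, 129364570 to 129371139, minus strand), varied more between livers of 1 group than between groups. It measured 1.33, 2.75 and 3.19 FPKM in knockout livers, against 1.26, 1.64 and 3.85 FPKM in control livers. The highest and the lowest value were both in controls. The log2 fold change was 0.11 with a 95% interval of -0.67 to 0.90 (limma adjusted p = 0.916), the widest interval of the 9 genes, at 36 to 122 reads per library. The direction turned when knockout 3 or control 1 was left out. Il1a, the gene of interleukin 1 alpha, which acts through the same receptor, measured 1.66, 1.64 and 1.60 FPKM in knockouts, against 1.55, 2.72 and 3.20 FPKM in controls (limma adjusted p = 0.416). The knockouts sat near the lowest control.

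The genes of the 2 secreted inhibitors showed no difference beyond the spread between livers. Il1rn, the receptor antagonist gene (ENSMUSG00000026981, chromosome 2, 24336853 to 24351494, plus strand), measured 0.701, 0.946 and 0.550 FPKM in knockout livers, against 0.542, 0.620 and 0.522 FPKM in control livers. Groups overlapped, with knockout 2 highest and a log2 fold change of 0.14 (95% interval -0.13 to 0.42, limma adjusted p = 0.631). It was the lowest of the 9 genes in knockouts, at 45 to 105 reads per library, and it lies 2.11 megabases from Notch1, the gene targeted in these mice.

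Il18bp, which encodes the interleukin 18 binding protein (ENSMUSG00000070427, chromosome 7, 102014885 to 102018690, minus strand), measured 3.78, 3.94 and 3.48 FPKM in knockout livers, against 4.49, 4.02 and 3.24 FPKM in control livers. The control range held all 3 knockouts, and the log2 fold change was -0.049 (95% interval -0.33 to 0.23, limma adjusted p = 0.893). Its level relative to Il18 was 0.366, 0.379 and 0.343 in knockouts, against 0.372, 0.440 and 0.391 in controls, which overlapped. The ratio of Il1rn to Il1b ranged over 0.172 to 0.526 in knockouts and 0.136 to 0.431 in controls.

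Myd88, the shared adaptor gene (ENSMUSG00000032508, chromosome 9, 119335934 to 119341411, minus strand), measured 5.09, 5.31 and 7.31 FPKM in knockout livers, against 7.01, 5.19 and 6.56 FPKM in control livers. The groups overlapped, with knockout 3 highest, and the log2 fold change was -0.078 (95% interval -0.45 to 0.29, limma adjusted p = 0.871). Acaa1a, a peroxisomal enzyme gene on the opposite strand, covers 11.3% of the exon bases of Myd88 and averaged 33.7 FPKM in knockouts and 35.3 FPKM in controls, so reads in the shared part cannot be assigned. With FPKM rescaled to TPM, which moved the median log2 difference of all genes to 0.12, the differences of Il18bp and Myd88 were 0.081 and 0.056, below that median.

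By mean level Il18r1 was the last of the 9 genes in controls and the sixth in knockouts. In knockouts, Il18, Il1rap and Il1r1 had the highest means, with Il18 and Il1rap nearly equal, followed by Myd88, Il18bp, Il18r1, Il1b, Il33 and Il1rn. In controls the order was Il1rap, Il18, Myd88, Il1r1, Il18bp, Il1b, Il33, Il1rn and Il18r1. Among neighbours in these orders, ranges over 3 livers were separate only between Myd88 and Il18bp in knockouts. In controls they were separate between Il1rap and Il18, between Il18 and Myd88, and between Il1b and Il33.

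Genes that mature the cytokines or carry the signal showed no change that passed the test. Of 16 inflammasome genes 5 were tested, with 1 higher and 4 lower means, and Nlrp3, Pycard and Casp4 were among those too low to test. Of 22 tested genes from MyD88 to NF-kB, 7 had higher and 15 lower means, with a median log2 fold change of -0.030. Of 11 tested NF-kB feedback genes, 8 had higher and 3 lower means, with a median of 0.10. By limma 0 genes of these 3 lists passed after adjustment over all genes, 0 had an unadjusted p under 0.05, and 0 passed by limma voom. Sigirr, which encodes an inhibitory receptor of the same family, was the single tested gene among 7 other receptors and measured 5.27, 6.41 and 5.54 FPKM in knockouts, against 3.37, 4.74 and 4.45 FPKM in controls. Those groups did not overlap (limma adjusted p = 0.279).

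Genes known to answer the 2 cytokines gave a divided picture. Among 15 tested genes that interleukin 1 induces in liver, 12 had higher and 3 lower means in knockouts, and the median log2 fold change was 0.45. By limma 0 passed, 4 had an unadjusted p under 0.05 and were higher (against 6.83% of all tested genes), and 0 passed by limma voom. The summed level of all 18 genes of this list was 11388 FPKM in knockout 1, 4411 in knockout 2 and 11709 in knockout 3, against 5702, 4439 and 4544 FPKM in controls 1 to 3. Knockout 2 lay with the controls, just below their lowest, while the other knockouts lay above them. Single genes did not all follow the sum, since 3 of the 15 tested stood above all controls in all knockouts, against 9.20% of all tested genes. Saa3, a serum amyloid gene, measured 5.44, 3.90 and 6.24 FPKM in knockouts, against 1.15, 1.60 and 0.947 FPKM in controls (limma adjusted p = 0.0877). C3, the gene of complement component 3, measured 1405, 1211 and 1299 FPKM in knockouts, against 856, 883 and 1065 FPKM in controls (limma adjusted p = 0.251). Icam1, an adhesion molecule gene named here after its values were seen, measured 2.10, 2.21 and 2.24 FPKM in knockouts, against 0.780, 1.75 and 1.59 FPKM in controls (limma adjusted p = 0.318). Saa2, another serum amyloid gene, measured 813, 8.62 and 1537 FPKM in knockouts, against 12.2, 4.79 and 3.94 FPKM in controls (limma adjusted p = 0.291). Hp, the haptoglobin gene, measured 3721, 1292 and 3723 FPKM in knockouts, against 1452, 1246 and 1315 FPKM in controls (limma adjusted p = 0.360). For Saa2 and Hp, knockout 2 lay within the range of the controls. Hp was also named after its values were seen. Il33, like the summed level of this list, was lowest of the knockouts in knockout 2, whereas Il18r1 was highest there.

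Of 7 tested genes of the interleukin 18 and interferon gamma response, 4 had higher and 3 lower means, and 0 passed by limma or by limma voom. At an unadjusted p under 0.05 there were 1 higher and 2 lower genes, against 6.83% and 7.06% of all tested genes. Gzmb, the granzyme B gene of cytotoxic cells, measured 0.466, 0.347 and 0.407 FPKM in knockouts, against 0.928, 0.870 and 0.922 FPKM in controls (limma adjusted p = 0.150). Its levels rested on 10, 10 and 10 reads in knockouts, against 20, 20 and 22 reads in controls. With a knockout mean of 0.407 FPKM, it met the filter of 0.5 FPKM only through the controls. Cxcl10, a chemokine induced by interferon gamma, measured 0.742, 1.22 and 1.04 FPKM in knockouts, against 2.04, 1.39 and 1.36 FPKM in controls (limma adjusted p = 0.327). Both lay below all controls in all knockouts, 2 of the 7 tested genes, against 10.6% of all tested genes. Irf1, an interferon-induced transcription factor gene, measured 4.81, 4.67 and 3.35 FPKM in knockouts, against 3.15, 3.49 and 3.00 FPKM in controls, and the groups overlapped (limma adjusted p = 0.357). Cxcl9, another chemokine induced by interferon gamma and named here after its values were seen, measured 5.23, 12.1 and 5.28 FPKM in knockouts, against 4.75, 5.18 and 4.57 FPKM in controls (limma adjusted p = 0.519). Its knockouts all lay above the controls, 2 of them narrowly. Ifng itself was too low to test.

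Sinusoidal endothelial markers, 10 of 10 tested, had 2 higher and 8 lower means. Of these markers 3 lay below all controls in all knockouts, against 10.6% of all tested genes. By limma 0 of the markers passed after adjustment, and 0 passed by limma voom. At an unadjusted p under 0.05 there were 2, both lower, against 7.06% of all tested genes. Their sum was 84.5, 70.5 and 66.3 FPKM in knockouts, against 86.5, 87.9 and 69.4 FPKM in controls, and overlapped. The part of these cells in the receptor and cytokine levels was not tested.

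Kupffer cell markers, 12 of 12 tested, summed to 403, 296 and 333 FPKM in knockouts, against 364, 384 and 306 FPKM in controls, and overlapped. The summed level of 12 monocyte and neutrophil markers was 158, 142 and 174 FPKM in knockouts, against 104, 142 and 111 FPKM in controls. The groups did not overlap in this sum, with knockout 2 just above control 2. Lyz2 made up most of that sum and itself overlapped, at 130 FPKM in knockout 2 and 131 FPKM in control 2. Of the 12 markers 5 were tested, with 4 higher and 1 lower means, and 0 stood above all controls in all knockouts. Ly6g, a neutrophil marker, was at or near 0 in all libraries. The part of these cells in the cytokine levels was not tested.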

How the data were processed

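Whole-liver messenger RNA from 3 knockout and 3 control mice was analysed. The authors deposited FPKM per gene; how FPKM was computed is not stated in the sources used here. Per the submitters' processing notes, the tools were HISAT2 2.0.5 and featureCounts 1.5.0-p3 and the build was GRCm38, with no roles or settings named. Per the labels' protocols, poly-T beads and a NEBNext Ultra kit were used; a strand setting is not stated. The deposited gene length, a column of another kind, equalled the union of GENCODE M21 exons for all 9 genes. Multiplying FPKM by length gave whole numbers of reads, after division by a constant for each library, for 100% of nonzero values (tolerance 0.1 read); 3 reads in a gene 1 kilobase long are 0.150 to 0.201 FPKM. There were 0 columns left over.

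The 12022 genes that averaged 0.5 FPKM or more, all 9 members among them, entered a fit of log2(FPKM + 1) in limma 3.58.1 (eBayes with trend) in R 4.3.3, two-sided, with Benjamini-Hochberg adjustment over all tested genes. Il18r1 averaged 0.303 FPKM in controls, so it met this filter only through the knockouts. The fit was also run on simulated reads drawn with the same spread setting for every gene, and no result here rests on that run. Alternatives were pseudocounts of 0.1 and 0.5, other filters on low values, quantile and TPM scaling, robust eBayes, limma voom, the replicate block and leaving out each liver. P-values measure the spread between these 6 livers, whose separate origin the labels do not describe. The members and gene lists were chosen with earlier results of these data known. Named genes were the 9 members, Notch1, up to 3 tested genes of smallest p per list and the 5 genes most correlated with the member of smallest p; other genes (Il1rl1, Il18rap, Il1r2, Il1rl2, overlapping genes and list genes near 0) were named after their values were seen.

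Deviations from the group means correlated at 0.31, 0.16 and 0.10 for same-numbered libraries, each above 0.1, and at -0.25 to 0.11 for others. This pairing is read from the data, as the labels name no shared litter, batch or day, so the replicate number was a block only in an alternative fit.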

Additional observations from a re-analysis of the deposited data

How the results depend on the processing

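The 9 genes were refitted under 15 alternatives (14 for Il1rn, which a filter at 1 FPKM removed). None of the 9 passed in any of them except Il18r1 without control 3, which made that count 1; over the leave-one-out fits the count ran from 0 to 1. Of 134 refitted log2 differences, 7 changed sign, all for genes whose groups overlapped. Rescaling to TPM turned Il18bp (0.081) and Myd88 (0.056). Leaving out single livers moved Il1b over -0.11 to 0.44 (negative without knockout 3 or control 1) and Il18 over -0.030 to 0.22 (negative without control 3). The same step moved Il18bp over -0.15 to 0.035 (positive without control 1) and Myd88 over -0.22 to 0.0057 (positive without knockout 1). The count of all genes past the threshold, 3, was 1 with a pseudocount of 0.1, 0 with no filter on low values, 5 with TPM and 15 with limma voom, and it ran from 0 to 58 when single livers were left out, with 29 without knockout 2 and 58 without control 3. With the replicate number as a block, 0 genes passed and 0 of the 9 did, so the block changed no call among the 9. The cause of these shifts was not tested. Fits without 1 liver rest on 2 livers in that group. Depth limits Il18r1 in controls (3 to 54 reads) and Il33 (23 to 84 reads) most.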
